A study of Homo sapiens with 19 samples.

Results

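The colony stimulating factors and interleukin 1 cytokines were followed as messenger RNA across 19 cell lines: MDA-MB-231, a basal-like line from human breast cancer, and its derivatives. The set was defined by gene annotation: CSF1, CSF2 and CSF3, the interleukin 1 genes IL1A, IL1B and IL1RN, the receptor chains IL1R1 and IL1RAP, and the cytokines IL18 and IL32. Of these 10 genes, 9 had a probe set annotated to that gene alone, out of 11961 genes named in this way on the array. They were covered by 20 probe sets, of which 17 passed the filter on low signal and 3 did not (2 of IL1RN and 1 of IL1R1). All 9 genes kept at least 1 probe set and were tested. CSF2 was not analysed here.

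The colony stimulating factors are secreted proteins that drive the growth and maturation of myeloid cells: CSF1 acts on macrophages and osteoclasts through CSF1R, and CSF3, also called G-CSF, acts on neutrophils. IL1A and IL1B both bind the receptor chain IL1R1, which then recruits IL1RAP and signals through MYD88 and the IRAK kinases to NF-kB. IL1RN occupies the same receptor without signalling, IL18 is a relative of IL1B that is activated by the same protease, caspase-1, and IL32 is an inflammatory cytokine of a separate structure that is induced by IL1 and TNF. In breast tumours these factors are known as signals from cancer cells to myeloid cells and to the bone-resorbing osteoclasts.

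The series asked how spontaneous ploidy doubling bears on metastasis, and held 1 array for each line. The groups were the parental MDA-MB-231 line (1 array), modal-ploid and hyper-ploid sublines of the bone line 1833 and of the lung line 4175 (1 array of each, 4 in all), weakly bone-metastatic lines 2293, 2295 and 2296 and strongly bone-metastatic lines 1833, 2274, 2268 and 2269, and weakly lung-metastatic lines SCP21, SCP6 and SCP26 and strongly lung-metastatic lines 4142, 4173, 4175 and 4180. All lines were grown in culture in medium with serum, antibiotics and selective drugs that are not named, and the labels name no other treatment. How metastatic strength was scored is not given in the labels. The line titled 2296 carries a different number in other labels, with the same group under either. A replicate here is a separate line and not a repeated culture, so the p-values measure the spread between lines, and no repeat of a line was analysed.

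The deposited values were linear ratios in 2 array sets with separate divisors, the parental, 1833 and bone arrays (10) and the 4175 and lung arrays (9). Signals were recovered from the ratios and scaled to a common array median. All differences below are on the log2(signal + 16) scale, which understates the change of dim genes. Each strong-minus-weak or hyper-minus-modal difference was taken within 1 array set. The contrast between organs and the fit over the ploidy arrays combine such differences from both sets. A signal above the 40th percentile of its own array, a level of 71.8 to 94.0 depending on the array, is called detected here. The lines had the profile of their label only in part. VIM, CD44, EGFR, KRT8 and KRT18, which should be present, were detected on 19 arrays. Of the markers that should be low, PGR was detected on 0 arrays. However, ERBB2 at 342 to 1021 was detected on all 19 arrays and ESR1 at 51.5 to 177 on 16. Array medians before scaling were 124 to 163 on 15 arrays and 89.2 to 97.6 on the 4 ploidy arrays, and the mean log2 signal of 11 labelled spike-in probe sets was 11.8 to 12.1 on the parental and bone arrays, 10.6 to 11.4 on the lung arrays and 9.97 to 10.3 on the ploidy arrays. Array handling and target organ, or array handling and the step from a line to its ploidy sublines, cannot be told apart. The strong and weak lines of each organ had overlapping spike-in ranges.

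Leukocytes are the other usual source of these cytokines. Of 13 leukocyte marker genes on the array, 7 (PTPRC, ITGAX, LYZ, TYROBP, NKG7, S100A8 and S100A9) were detected on no array. The other 6 were detected on part of the arrays: ITGAM on 14, CD14, FCER1G and CD3E on 13 each, CSF1R on 12 and MS4A1 on 2. The summed signal of the 13 genes was 683 to 979 in weak and 523 to 845 in strong bone lines, and 371 to 986 in weak and 643 to 943 in strong lung lines, so the ranges overlapped. None of the 6 leukocyte markers that could be tested passed the threshold in either organ.

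Promoters are shown for 3 of the members for which a sequence was at hand: IL32, which was lower in the strong lines of both organs, and IL1A and IL1B, whose proteins share a receptor. Each is the 250 bases before the outermost annotated start, from RefSeq on GRCh38.p14, 5′ to 3′ on the gene's strand, and 7 of the 10 members had such a sequence. They were searched on both strands for the NF-kB consensus site, for the AP-1 site TGANTCA and for the TATA box TATAAA. Capitals mark matches.
IL32, chr16:3065153-3065402, plus strand: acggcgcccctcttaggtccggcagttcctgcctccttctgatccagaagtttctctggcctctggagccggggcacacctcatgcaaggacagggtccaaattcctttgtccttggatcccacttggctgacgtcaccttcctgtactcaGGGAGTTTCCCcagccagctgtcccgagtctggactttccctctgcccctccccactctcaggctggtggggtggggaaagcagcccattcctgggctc
IL1A, chr2:112784494-112784743, minus strand: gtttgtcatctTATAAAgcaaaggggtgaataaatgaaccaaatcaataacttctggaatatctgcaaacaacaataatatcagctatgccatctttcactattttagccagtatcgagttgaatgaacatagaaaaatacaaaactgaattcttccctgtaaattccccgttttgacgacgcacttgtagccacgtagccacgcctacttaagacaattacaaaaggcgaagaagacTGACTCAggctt
IL1B, chr2:112836780-112837029, minus strand: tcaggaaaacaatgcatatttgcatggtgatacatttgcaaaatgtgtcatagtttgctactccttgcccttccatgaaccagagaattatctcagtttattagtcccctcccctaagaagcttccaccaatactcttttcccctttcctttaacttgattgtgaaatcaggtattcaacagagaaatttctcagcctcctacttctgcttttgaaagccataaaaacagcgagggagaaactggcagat

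The IL32 window held a pair of overlapping matches to the NF-kB consensus, beginning 99 and 98 bases before the start. The IL1A window held an AP-1 match 12 bases and a TATA match 239 bases before the start, and IL1RN held an AP-1 match 223 bases before its start. In the IL1B, CSF2, IL1R1 and IL1RAP windows these letters did not occur. Among 27305 windows of the same length, 5.07% held the NF-kB consensus, 6.57% the AP-1 site and 11.2% the TATA box, so a match of this kind is common and is a description of the letters alone.

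In the bone lines, members that changed were lower in the strongly metastatic lines: 4 of the 9 passed the threshold there (CSF3, IL1A, IL32 and IL1R1) and none was higher, where 11.4% of the 9550 genes tested were called, 6.72% of the 9550 higher and 4.72% lower. The median difference of the 9 was -1.31 against 0.01 over all genes tested. In the lung lines 1 member rose in the strongly metastatic lines (CSF3) and 2 fell (IL32 and CSF1), where 8.79% of all genes were called, 3.33% higher and 5.46% lower, and the median of the 9 was -0.47 against -0.01. The strong-minus-weak difference itself differed between bone and lung for 4 members, higher for IL32 and lower for CSF3, IL1B and IL1RAP, where 11.7% of all genes were called in that contrast, 6.92% higher and 4.76% lower. Strong and weak lines did not overlap, with the strong lines lower, for 6 of the 9 members in bone (CSF1, CSF3, IL1A, IL1B, IL1R1 and IL1RAP) against 12.9% of all genes, and for 0 members with the strong lines higher against 14.6%. For lung 3 members were separated with the strong lines lower (CSF1, IL32 and IL1RN) against 11.4%, and 1 with the strong lines higher (CSF3) against 8.4%.

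**Figure D1:**
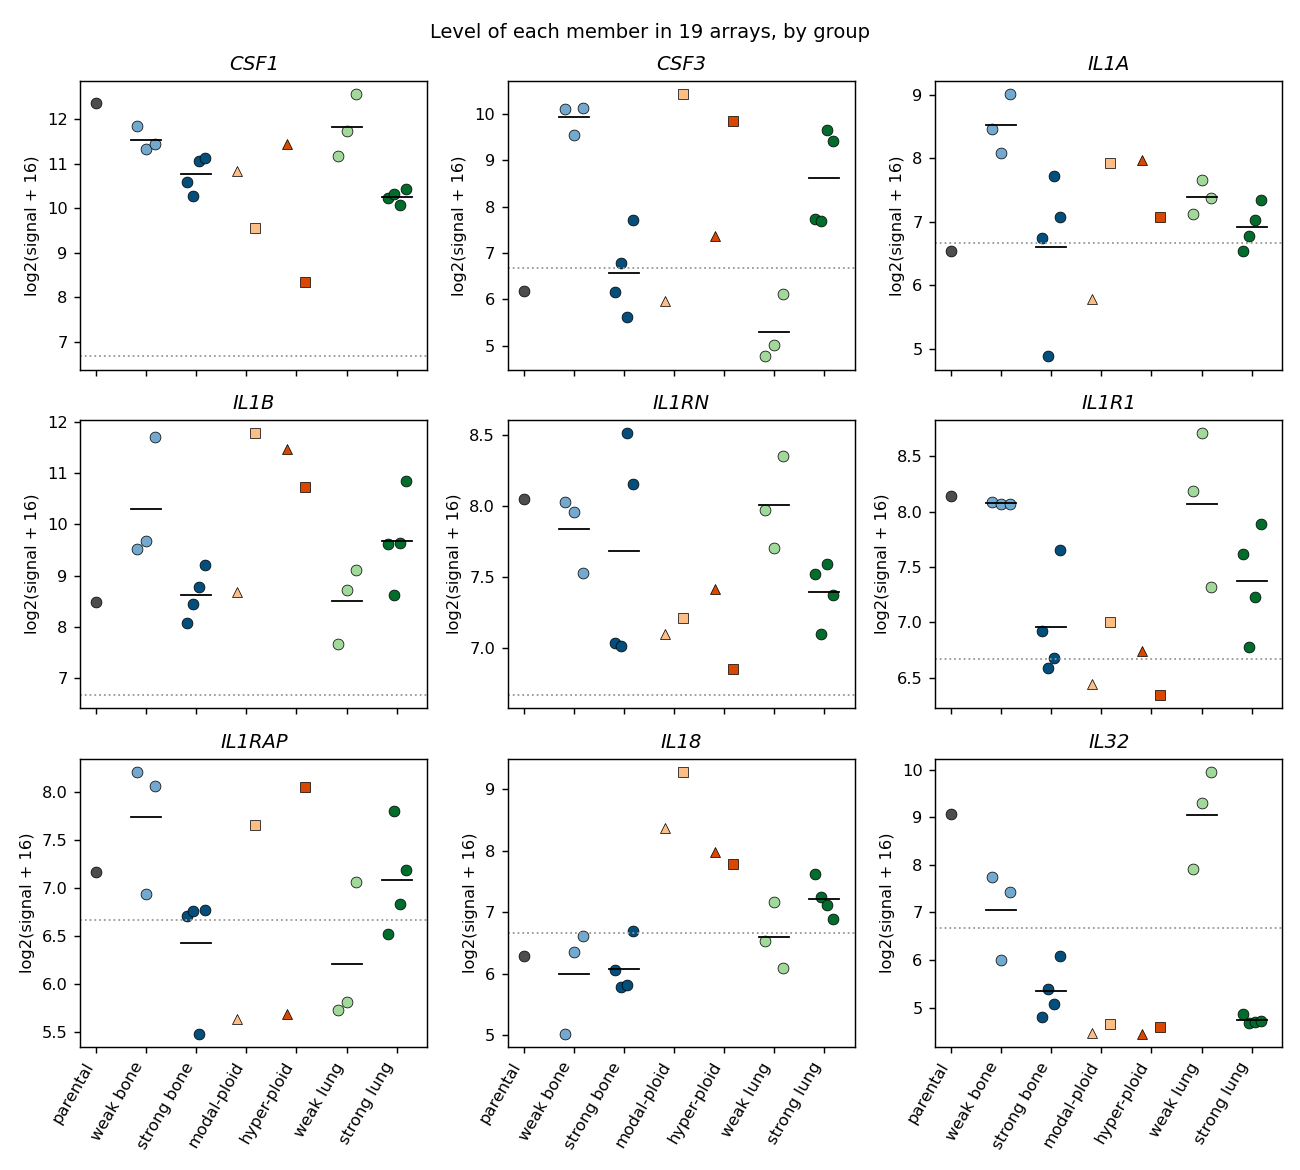
Level of each measured member, log2(signal + 16), in every line by group, 1 point per array, with bars at the mean of groups of 3 or 4 lines. Triangles are ploidy sublines of 1833, squares those of 4175, and the dotted line is the median over arrays of the 40th percentile level. CSF3 is high in weak bone and strong lung lines, and IL32 is high in the parental and weak lung lines.

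CSF3, the neutrophil growth factor, went in opposite directions in the organs. The weakly bone-metastatic lines read 1086, 735 and 1110.1 scaled signal units (2293, 2295 and 2296), while the strongly bone-metastatic lines read 55.2, 194, 93.6 and 32.8 (1833, 2274, 2268 and 2269). No strong bone line came near a weak one. Means were 9.93 ± 0.33 (SD, n = 3) in weak and 6.56 ± 0.90 (SD, n = 4) in strong bone lines, a log2 difference of -3.37 (SE 0.56, limma adjusted p = 0.0021). CSF3 was detected in all 3 weak bone lines and in 2 of the 4 strong ones, 2274 and 2268, so the size of the fall rests in part on undetected values.

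The lung lines showed the reverse order for CSF3. SCP21, SCP6 and SCP26 read 11.2, 53.4 and 16.2, none of them detected, and the strong lines 4142, 4173, 4175 and 4180 read 197, 192, 789.6 and 669.7. CSF3 was at least 3.90-fold higher in the strong lung lines, taking the undetected lines at their 40th percentile level (log2 difference 3.33, SE 0.56, limma adjusted p = 0.0023). The difference between the organs' strong-minus-weak differences was -6.70 (SE 0.79, limma adjusted p = 0.00019). Leaving out any 1 of the 7 lines of the organ kept the bone and lung calls of CSF3, with limma adjusted p of at most 0.0128 for bone and 0.0116 for lung. The contrast between organs held without any 1 of the 14 lines.

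The parental line read 56.7 for CSF3, below the detected level and within the range of the strong bone lines. Its weak bone derivatives were thus the high group of the first array set, at deposited ratios of 6.06 to 9.12 against 0.27 to 1.59 in the strong bone lines and 0.466 in the parent. CSF3 had 1 probe set, and it was detected on 12 of 19 arrays.

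CSF1, the macrophage and osteoclast growth factor, was detected on every array by its brightest probe set, and the parental line read 5258, above every other array of its set. The weak lung lines read 2302, 6019.7 and 3372 (SCP21, SCP6 and SCP26) and the strong lung lines 1178, 1263, 1064 and 1352. The strong lines lay close together, with an SD of 0.15 (n = 4) against 0.70 (n = 3), and all below the weak lines. CSF1 fell 2.95-fold in the strong lung lines (log2 difference -1.56, SE 0.29, limma adjusted p = 0.0045), and the call held without any 1 lung line.

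The bone lines differed less for CSF1. Weak lines read 3647, 2570.0 and 2761 and strong lines 1531, 2208, 1228 and 2118, which did not overlap, but the difference of -0.77 (SE 0.29) did not pass (limma adjusted p = 0.103). The other 3 probe sets of CSF1 gave bone differences of 0.00, 0.13 and -0.07, and lung differences of -1.86, -1.09 and -2.15. The lung difference was thus below -1 in all 4 probe sets, and the bone difference was far from 0 only in the brightest. The bone and lung differences of CSF1 were not distinguished by their contrast (0.79, limma adjusted p = 0.245).

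IL1A and IL1B, the agonists of the interleukin 1 receptor, both read higher in the weak than in the strong bone lines. For IL1A the weak bone lines read 336, 256 and 498, and the strong bone lines 91.7, 119, 13.6 and 195, with no overlap. IL1A fell 3.75-fold in the strong bone lines (log2 difference -1.91, SE 0.49, limma adjusted p = 0.0233). Line 2268 was the lowest of its array set and was not detected, so the size of the fall rests in part on an undetected value. Without line 2268 the difference was -1.33. The call was lost without line 2293 (-1.94, adjusted p = 0.0667) or without line 2296 (-1.67, adjusted p = 0.0989), and on the deposited ratios (adjusted p = 0.0511).

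Among the lung lines IL1A read 124, 151 and 185 in weak and 76.9, 93.4, 114 and 145 in strong lines. These ranges overlapped, and the difference of -0.47 did not pass (limma adjusted p = 0.617). A second IL1A probe set was detected on only 2 arrays and gave differences of -0.42 for bone and 0.49 for lung. The parental line, of the first array set, read 76.9 for IL1A, below the detected level and within the range of the strong bone lines.

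IL1B was brighter than its detected level on all 19 arrays. The weak bone lines read 719, 801 and 3297, the last in line 2296, and the strong bone lines 254, 576, 331 and 419.8. The groups were separated, but the spread of the weak lines was wide (SD 1.21, n = 3), and the difference of -1.67 (SE 0.57) did not pass (limma adjusted p = 0.0728). For lung the weak values were 186, 538 and 406 and the strong values 769.8, 376, 779.9 and 1809.5, an overlapping pair of groups with a difference of 1.18 (95% interval -0.04 to 2.39, limma adjusted p = 0.233).

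The organs' IL1B differences had opposite signs, and their contrast passed at -2.85 (SE 0.80, limma adjusted p = 0.0343). That call was lost in 7 of the 14 runs that left out 1 line. Without 2296 it was -2.15 (adjusted p = 0.0760), without 1833 -2.67 (0.0655), without 2268 -2.79 (0.0599), without SCP21 -2.43 (0.0798), without 4142 -2.87 (0.0534), without 4175 -2.86 (0.0585) and without 4180 -2.46 (0.0604), all by limma. The second IL1B probe set gave -1.77 for bone and 0.97 for lung, the same signs.

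IL1RN, the secreted antagonist, was detected on all 19 arrays by its brightest probe set, and its other 4 probe sets were detected on 10, 2, 0 and 0 arrays. The weak bone lines read 245, 233 and 169 and the strong bone lines 115, 269, 113 and 350.3, ranges that overlapped widely (difference -0.16, 95% interval -0.88 to 0.56, limma adjusted p = 0.818). The weak lung lines read 236, 311 and 192 and the strong lung lines 168, 121, 177 and 149.7. These were separated by a small gap, and the difference of -0.61 (SE 0.33) did not pass (limma adjusted p = 0.293). The other kept IL1RN probe sets gave positive values, 0.22 and 0.64 for bone and 0.23 and 0.49 for lung, so probe sets of this gene disagreed in sign.

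The receptor chain IL1R1 was lower in strong bone lines. Its weak bone values lay within 252 to 256 and its strong bone values were 105, 185, 80.4 and 86.5, again without overlap. The last 2 of these, in lines 2268 and 2269, were not detected. The difference of -1.11 (SE 0.34) was just past the threshold (limma adjusted p = 0.0495). It passed in 4 of 9 other settings and in 1 of the 7 runs that left out a bone line, that without line 2274; without the others the difference was -0.99 to -1.12 and the adjusted p 0.0903 (without 2269), 0.0961 (without 1833), 0.115 (without 2268), 0.117 (without 2295), 0.119 (without 2296) and 0.125 (without 2293). For lung the weak values of 276, 144 and 404 overlapped the strong values of 181, 93.5, 134 and 220.4, and the difference was -0.70 (limma adjusted p = 0.241). The second IL1R1 probe set, detected on only 1 array and not kept by the filter, gave 0.93 for bone and -0.75 for lung.

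IL1RAP, the chain shared by the receptors for IL1, IL33 and IL36, read 279, 106 and 250.2 in weak bone lines and 88.2, 92.6, 92.3 and 28.5 in strong bone lines. Line 2269 stood below the other strong bone lines and was the only one of them not detected. The groups did not overlap, but the difference of -1.31 (SE 0.44) did not pass (limma adjusted p = 0.0704). For lung the weak values were 37.0, 117 and 40.1 and the strong values 75.4, 207, 97.7 and 129, with a difference of 0.88 in the opposite direction (limma adjusted p = 0.249).

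As with IL1B, the contrast between organs passed for IL1RAP, at -2.19 (SE 0.62, limma adjusted p = 0.0353). It was lost in 7 of 14 runs that left out a line: -1.95 without 2293 (adjusted p = 0.0882), -2.03 without 2296 (0.0842), -1.96 without SCP21 (0.0793), -2.0 without SCP26 (0.0661), -1.95 without 4173 (0.0697), -2.27 without 4175 (0.0510) and -2.16 without 4180 (0.0628), all by limma. The second IL1RAP probe set was detected on 6 arrays and gave -0.52 for bone and -0.31 for lung.

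IL18 was near the detected level in most metastatic lines. The weak bone lines read 16.5, 66.2 and 81.4 and the strong bone lines 50.4, 87.3, 38.9 and 40.4, with a difference of 0.09 (95% interval -0.70 to 0.88, limma adjusted p = 0.915). The weak lung lines read 76.3, 52.5 and 127 and the strong lung lines 181, 135, 122 and 103, of which all 4 were detected against 1 of the 3 weak lines. The groups overlapped, and the difference of 0.62 did not pass (limma adjusted p = 0.340).

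IL32 fell in the strong lines of both organs. The weak lung lines read 224, 979.6 and 611 (SCP21, SCP6 and SCP26), and the strong lung lines 13.3, 9.45, 10.0 and 10.4, none of them detected. IL32 was at least 4.97-fold lower in the strong lung lines, with these taken at the 40th percentile level, and the fitted log2 difference was -4.31 (SE 0.47, limma adjusted p = 0.00013). The deposited ratios were 18.9, 82.3 and 51.5 in the weak and 0.797 to 1.12 in the strong lung lines, and the call held without any 1 lung line.

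In the bone lines IL32 moved the same way. The weak lines read 199.8, 47.9 and 155 and the strong lines 11.8, 51.6, 26.1 and 17.9. The values of 2295 and 2274 crossed, and no strong bone line was detected. IL32 was at least 1.32-fold lower in the strong bone lines (fitted log2 difference -1.72, SE 0.47, limma adjusted p = 0.0304), and the bone and lung differences differed by 2.59 (SE 0.66, limma adjusted p = 0.0225). The bone call was lost without 2293 (-1.37, adjusted p = 0.136), 2296 (-1.54, 0.114), 1833 (-1.54, 0.0809), 2268 (-1.74, 0.0586) or 2269 (-1.63, 0.0560), and the contrast between organs without 2295 (2.06, 0.0551). The parental line read 520.3, at a deposited ratio of 14.1, above each of the 7 bone lines.

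**Figure D2:**
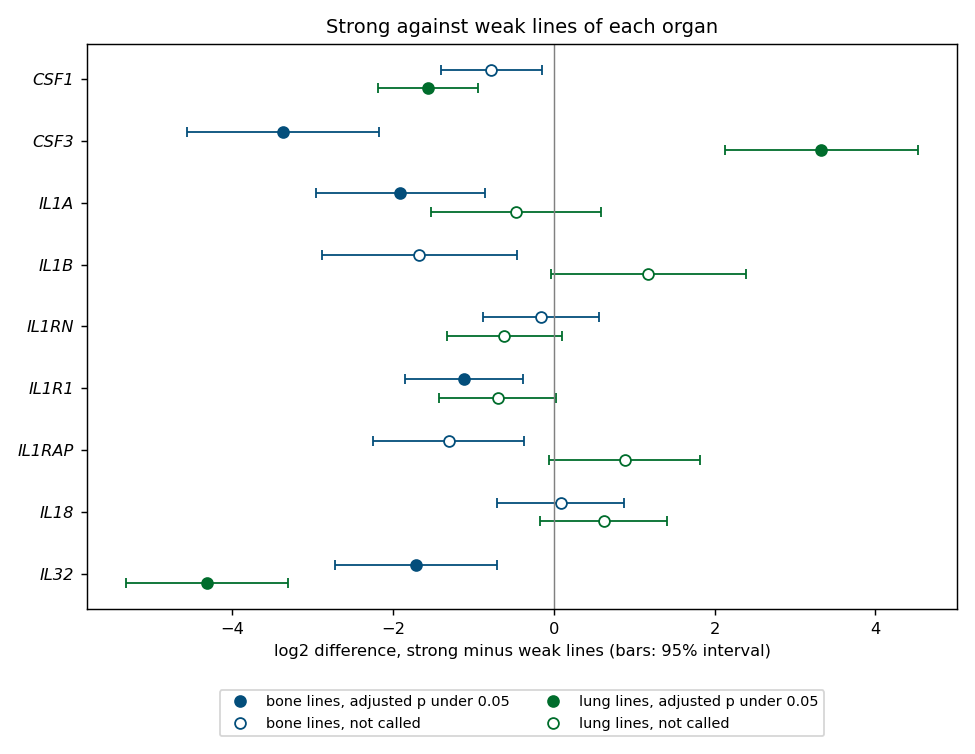
Strong minus weak log2 difference of each member with its 95% interval, bone lines in blue and lung lines in green, filled where the limma adjusted p was under 0.05. CSF3 lies at -3.37 for bone and 3.33 for lung, and IL32 is negative for both.

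Within each array set the order of groups can be read from the plot of levels by group. In the bone set IL32 ran from the parent (9.07) through weak (7.06) to strong lines (5.34), each step larger than the SD of the strong lines. The brightest CSF1 probe set ran from 12.4 through 11.5 to 10.8, but its step from weak to strong lines did not pass and was not seen in the other 3 probe sets. CSF3 and IL1A instead peaked in the weak bone lines, with the parent inside the range of the strong lines for CSF3 and IL1A. For IL1R1 the parent read 267, next to 252 to 256 in the weak bone lines and above all strong bone lines.

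The ploidy sublines were compared as 2 pairs, and no member passed in the fit over the 4 arrays blocked by origin (limma adjusted p of 0.595 for IL18 to 0.999), where 0.0105% of genes, 1 gene, were called. That fit had 1 residual degree of freedom among arrays, and 504 genes had an unadjusted p under 0.05. The values per pair are therefore single differences between arrays, without a replicate check.

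IL1B differed with opposite sign in the pairs. The 1833 modal-ploid subline read 392 and the hyper-ploid subline 2805, a difference of 2.79, while the 4175 sublines read 3500.1 and 1684, a difference of -1.05. The strong lines 1833 and 4175 themselves read 254 and 779.9. IL1A followed with 39.3 against 236 in the 1833 pair (2.19) and 226 against 119.5 in the 4175 pair (-0.84). CSF3 read 46.8 and 149.5 in the 1833 pair (1.40) and 1364 and 903 in the 4175 pair (-0.59), and CSF1 read 1806 and 2781 (0.62) and 736 and 309 (-1.21). These 4 genes were thus higher in the hyper-ploid array of the 1833 pair and lower in that of the 4175 pair. IL1RN (0.31 and -0.36) and IL1R1 (0.30 and -0.66) had the same signs. How many of all genes had opposite signs in the pairs was not counted. In the 1833 pair 1.69% of all genes were over 1 log2 unit higher and 1.61% over 1 log2 unit lower, and in the 4175 pair 2.19% and 2.97%. The second IL1B probe set gave 3.23 and -1.39.

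IL18 and IL1B were above the line of origin in all 4 ploidy sublines, and IL1R1 and IL32 were below it in all 4. For IL32 these differences were only -0.35 to -0.05, between undetected values. The share of all genes that lay to 1 side of the line of origin in all 4 was not counted. IL18 read 314 and 235 in the modal-ploid and hyper-ploid sublines of 1833, against 50.4 in line 1833, and 607 and 205 in those of 4175, against 122 in line 4175. All 4 sublines exceeded every other array, which lay at 16.5 to 181. For IL18 the modal-ploid sublines lay 2.31 and 2.17 log2 units above 1833 and 4175 and the hyper-ploid sublines 1.92 and 0.68. For IL1B the modal-ploid sublines lay 0.59 and 2.14 above and the hyper-ploid sublines 3.38 and 1.09. These values go with the lower spike-in and array signal of the ploidy arrays given above, whose part in this was not tested. IL32 was undetected in all 4 sublines, at 5.78 to 9.11, and IL1RAP read 33.4 and 35.5 in the 1833 pair (0.06) and 185 and 249 in the 4175 pair (0.40), where its second probe set gave -0.58 and -0.90. IL1RN (121 and 155, then 132 and 99.5) and IL1R1 (71.0 and 90.8, then 112 and 65.2) differed by less than 1 log2 unit within each pair.

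**Figure D3:**
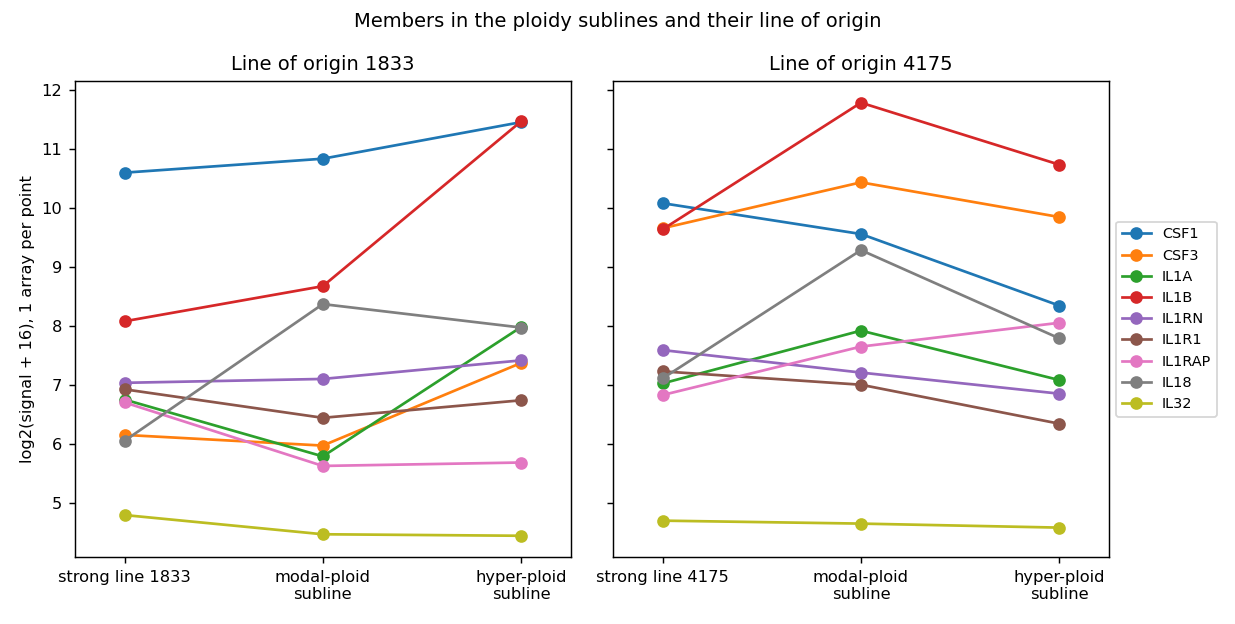
Level of each member, log2(signal + 16), in the strongly metastatic line, its modal-ploid subline and its hyper-ploid subline, with 1 array per point and 1 trace for each origin (1833 and 4175). IL1B and IL1A are higher in the hyper-ploid than in the modal-ploid subline in the 1833 trace and lower in the 4175 trace, and IL18 and IL1B are above the line of origin in all 4 sublines.

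Likeness between genes was described over the 14 strong and weak lines after the mean of each array set was subtracted. The points share the arrays and the strong-against-weak difference itself, so the correlation after subtracting each group's mean (within groups) is given beside it. CSF1 and IL32 ran most alike among the members, with r = 0.94 over 14 lines, 0.71 within groups, 0.82 over the 7 bone lines and 0.97 over the 7 lung lines. CSF3 ran with IL1B (0.79, and 0.55 within groups) and with IL1RAP (0.77, and 0.45 within groups). CSF3 and IL32 correlated at -0.27 over the 14 lines, at 0.91 over the bone lines and at -0.83 over the lung lines, and at 0.53 within groups.

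**Figure D4:**
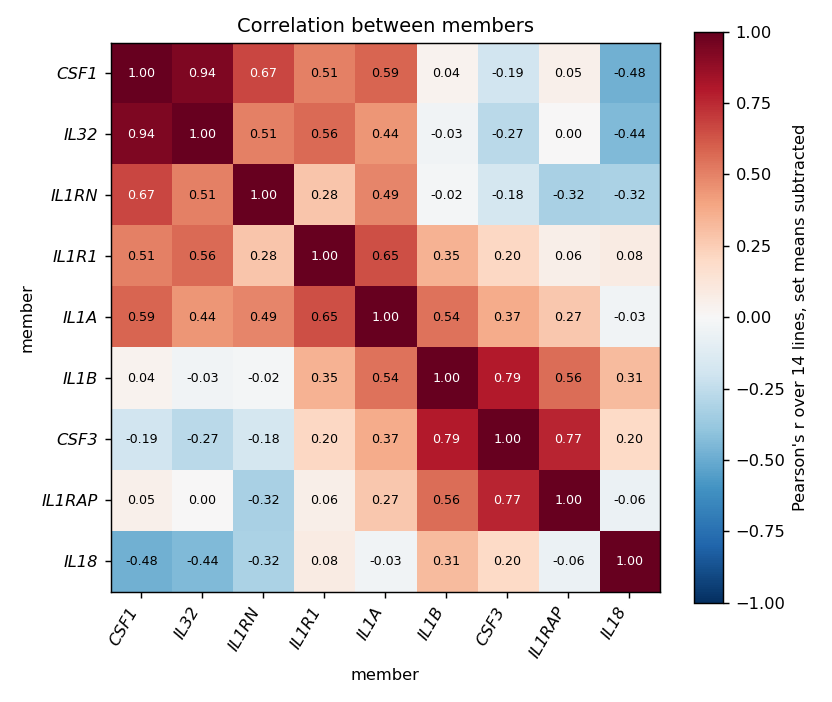
Pearson correlation between each pair of members over 14 strong and weak lines, with the mean of each array set subtracted and each cell coloured by r. The pair of CSF1 and IL32 stands at 0.94, and CSF3 correlates with IL1B at 0.79 and with IL1RAP at 0.77.

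Across all tested genes, those most like each member over the same 14 lines were as follows, each with its r and then its r within groups. For IL32 they were the complement factor gene CFB (0.97 and 0.87), CREG1 (0.96 and 0.78) and PHYH (0.94 and 0.58). For CSF1 they were ANXA4 (0.94 and 0.82), the adhesion molecule gene ICAM1 (0.94 and 0.85) and IL32 (0.94 and 0.71). For CSF3 they were STX1A (0.93 and 0.54), WBP11 (0.93 and 0.59) and CELSR1 (0.92 and 0.58). For IL1A they were TCOF1 (0.94 and 0.88), CPB1 (0.92 and 0.90) and C1QTNF1 (0.90 and 0.79). For IL1B they were the EGF receptor ligand HBEGF (0.82 and 0.61), MTHFD2L (0.82 and 0.60) and PTGDS (0.81 and 0.71). For IL1R1 they were ADCY7 (0.88 and 0.74), HACD2 (0.86 and 0.84) and GLCE (0.85 and 0.69), and for IL1RAP GCHFR (0.91 and 0.83), RAB1B (0.89 and 0.78) and UST (0.89 and 0.80). IL18 ran with TMX1 (0.85 and 0.84), XYLT1 (0.83 and 0.78) and the interferon regulatory factor gene IRF8 (0.82 and 0.84), and IL1RN with SAP130 (0.82 and 0.82), LMF1 (0.79 and 0.86) and KCTD13 (0.79 and 0.86).

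The receptors and partners of these cytokines were read from pathway lists that were chosen with earlier results of these data known. Of all genes tested, 11.4% were called in bone lines and 8.79% in lung lines. Of 11 other receptors of the CSF and IL1 families on the array 6 were tested, and none was called in bone lines. In the lung lines 2 fell: CSF2RA, the ligand-binding chain of the CSF2 receptor (-2.17, SE 0.35, limma adjusted p = 0.0016), and IL1RAPL1, a relative of IL1RAP (-1.53, SE 0.21, limma adjusted p = 0.00068). CSF1R, the receptor for CSF1, was tested and did not pass (bone -0.64, limma adjusted p = 0.240, and lung -0.06, limma adjusted p = 0.939). CSF3R, the receptor for CSF3, was among the 5 receptors that did not pass the filter. Of 6 other IL1 family ligands and binding proteins on the array, IL36A and IL36RN were tested and neither was called.

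The IL1 receptor signalling list had 16 tested genes, of which 3 rose and 1 fell in strong bone lines. There 6.72% of all genes were called higher and 4.72% lower. The ubiquitin ligase gene PELI1 (1.24), its partner enzyme UBE2N (1.11) and the kinase IRAK1 (0.99) rose, and IRAK3 fell (-1.87), with limma adjusted p of 0.0214, 0.0039, 0.0138 and 0.0118. IRAK3 is known as an inhibitor of the pathway. None of the 16 was called in lung lines, and the same 4 genes passed in the contrast between organs, as did 11.7% of all genes. The median of the list was 0.14 for bone and 0.04 for lung.

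Among 10 tested NF-kB subunits and inhibitors, 3 fell in strong bone lines: TNIP1 (-1.28), RELB (-1.08) and RELA (-0.61), with limma adjusted p of 0.0161, 0.0134 and 0.0381. In bone lines 4.72% of all genes were called lower. RELB also fell in strong lung lines (-1.11, limma adjusted p = 0.0130). That was 1 of the 10, close to the 8.79% of all genes called in lung lines, and is no result about the list. The list had a median of -0.46 for bone and -0.56 for lung.

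Of 10 tested inflammasome and processing genes none was called in bone lines. In strong lung lines the sensor NLRP3 (1.58, limma adjusted p = 0.0027) and CASP1, the protease that activates IL1B and IL18 (1.25, limma adjusted p = 0.0141), rose, and CAPN1, a calpain (-1.21, limma adjusted p = 0.0212), fell. There 3.33% of all genes were called higher and 5.46% lower. The contrast between organs passed for NLRP3 only (-1.31, limma adjusted p = 0.0417), where 11.7% of all genes passed, so this count is no result about the list. Of 16 tested genes of CSF receptor signalling, the kinase JAK2 rose (1.02, limma adjusted p = 0.0261) and the phosphatase PTPN6 fell (-0.64, limma adjusted p = 0.0194) in strong bone lines, and the kinase LYN fell in strong lung lines (-0.70, limma adjusted p = 0.0284). These counts, 2 and 1 of 16, are close to the shares of all genes called, 11.4% for bone and 8.79% for lung, and are no result about this list.

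The list of 17 tested genes known to be induced by IL1 held 6 that fell and 1 that rose in strong bone lines. There 4.72% of all genes tested were called lower and 6.72% higher. The list was chosen with earlier results of these data known, so its counts are no independent support. The 6 that fell included the iron-binding protein gene LCN2 (-5.15), complement C3 (-4.57) and the chemokines CCL20 (-4.18), CXCL1 (-3.49) and CXCL3 (-2.36), with IL6 at -1.87 (limma adjusted p from 7.3e-07 to 0.0401), and IL11 rose (3.52, limma adjusted p = 0.0032). In strong lung lines the collagenase MMP1 (6.83) and the prostaglandin synthase PTGS2 (2.37) rose, and LCN2 (-3.94), C3 (-3.20) and ICAM1 (-1.61) fell (limma adjusted p from 2.4e-05 to 0.0262). Of all genes tested 3.33% were called higher and 5.46% lower in lung lines. In the contrast between organs CCL20, MMP1, CXCL1, CXCL3 and PTGS2 were lower for bone (-5.10 to -2.81), where 4.76% of all genes were called lower. CSF3, IL1B and IL1RAP had the same sign in that contrast. No gene of these 7 lists was called between hyper-ploid and modal-ploid sublines.

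Of 9 marker genes of fibroblasts and endothelium, LUM, VWF and CDH5 were detected on no array. COL1A1 and DCN were detected on 19 arrays, PECAM1 on 17, COL1A2 on 16, COL3A1 on 7 and PDGFRB on 1. Of the 9, 5 were tested. In bone lines 1 was called, lower, where 4.72% of all genes were called lower. In lung lines 2 were called, both higher, where 3.33% of all genes were called higher. The other tested markers were not called. The endothelial marker PECAM1 fell in strong bone lines (-1.60) and rose in strong lung lines (1.13), the directions of CSF3, and COL1A1 rose in strong lung lines (1.0), with limma adjusted p of 0.0015, 0.0128 and 0.0143. The summed signal of the 9 genes was 1088 to 1369.6 in weak and 717 to 1199.7 in strong bone lines, and 840.1 to 1113 in weak and 1251 to 1444 in strong lung lines, the lung ranges not overlapping. Their part in the differences of the cytokine genes was not tested.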

How the data were processed

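Messenger RNA of 19 lines was hybridised to 1 Affymetrix array each, per the labels' protocols. The deposited values were linear ratios for 22283 probe sets, of 0.00115 to 361. Image analysis, normalisation and software were not given in the sources used here, so how the authors made the ratios was read from the values: in the first array set the median ratio was 1 for 91.6% of probe sets (tolerance 1e-06). Dividing out 1 divisor per probe set and 1 factor per array left whole steps of 0.1 signal units (tolerance 0.01 steps at low values) for 22268 probe sets (99.9%), and for at most 0.1% after shuffling. The 15 others were left out. Divisors of the 2 sets, solved separately, correlated at 0.973 on the log2 scale.

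Each array was scaled to the same median signal. Probe sets were kept if above the array's 40th percentile on at least 2 arrays (16318 probe sets), and signals were log2 transformed after adding 16. Genes came from the platform annotation (19071 probe sets with 1 symbol, 1043 with several, 2169 with none). The probe set with the highest mean stood for a gene, which gave 9550 genes. limma 3.58.1 in R 4.3.3 (lmFit, eBayes, two-sided, Benjamini-Hochberg over all genes, threshold 0.05) fitted 14 strong and weak lines together, and the 4 ploidy arrays with line of origin as a block, since each pair comes from 1 line per the labels. Scripts were tested on simulated data. The number of arrays limits the precision. In an "at least" fold the undetected group stands at its 40th percentile level.

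Named genes were all members, the 3 genes most like each, and up to 6 called genes of each pathway list. Members and lists were chosen with earlier results of these data known. Other settings tried were the deposited ratios, quantile and trimmed-mean scaling, pseudocounts of 1 and 64, other filters, the mean of all probe sets of a gene, each organ's 7 lines alone, no block, and leaving out each line or pair.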

Additional observations from a re-analysis of the deposited data

Results flagged for a closer look

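IL1RAP in line 2269 stood far from the other strongly bone-metastatic lines, at 5.47 on the log2(signal + 16) scale against 6.70 to 6.76 in the other 3 lines. Its gap to the nearest line was 0.953 of the group's range, above the critical value of 0.829 for 4 lines. The value of 2269 was not detected. The second IL1RAP probe set read 6.33 in 2269 against 6.36 to 6.72 in the other 3 lines, so the gap was not seen there. That probe set was detected only in 2274 among these lines. Among the 18 groups of 4 lines looked at in this way, chance flags about 1 in 20.

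For 4 members the strong-minus-weak difference was not the same in bone and lung lines by the contrast in limma. Bone minus lung was -6.70 for CSF3, -2.85 for IL1B, -2.19 for IL1RAP and 2.59 for IL32. For CSF3 the signs of the organs were opposite and both differences passed. For IL1B and IL1RAP the signs were opposite and neither organ's own difference passed. IL32 was lower in the strong lines of both organs, more so in lung. For CSF3 and IL32 undetected groups enter these contrasts, so their sizes are not measured on both sides: they were -7.81 to -5.14 for CSF3 and 1.92 to 3.27 for IL32 over 8 other settings.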

How the results depend on the processing

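The bone and lung calls of CSF3, the lung calls of IL32 and CSF1 and the contrast between organs for CSF3 held under every alternative run, in the same direction. They also held without any 1 of the lines compared in each. The limits are the 3 or 4 lines a group, 1 array a line, and signals near or below the 40th percentile for IL32, IL18, CSF3, IL1A, IL1R1 and IL1RAP.

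Members called in bone lines numbered 2 on the deposited ratios, 6 with pseudocount 64 or the 60th percentile filter, and 1 to 4 with 1 line left out, and those in the contrast between organs 2 to 4. Genes called in bone lines numbered 541 to 1250, in lung lines 501 to 999 and in the contrast 779 to 1405 with 1 line left out, and 441 in lung lines when the 7 lung lines were fitted alone. The share of bone calls that were higher was 58.7%, and 49.8% with quantile and 47.3% with trimmed-mean scaling; that of lung calls was 37.9%, 49.0% and 47.6%, and that of the contrast 59.2%, 48.6% and 48.8%. Trimmed-mean scaling moved the median of all genes in the contrast from 0.03 to -0.10.

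In the ploidy comparison the replicate block for line of origin changed no member's call: without the block 0 genes were called instead of 1. It was also 0 with ratios, quantile or trimmed-mean scaling, pseudocount 1, no filter and without the 1833 pair, and 19 with the 60th percentile filter. Without the 4175 pair the differences of CSF1 (0.62), IL1RN (0.31) and IL1R1 (0.30) changed sign, and without the 1833 pair those of CSF3 (-0.59), IL1A (-0.84) and IL1B (-1.05). With trimmed-mean scaling IL1RN became 0.0046.

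The mean of all kept probe sets turned IL1RN to 0.23 for bone and 0.034 for lung, IL1A to 0.010 for lung and IL1RAP to -0.25 for ploidy, none of them called, and moved the contrast of IL1RAP to -1.20 (limma adjusted p = 0.0842). With 1 bone line left out IL18 ranged from -0.40 to 0.39 and IL1RN from -0.44 to 0.064. IL1A for bone missed the threshold with the 7 bone lines alone (limma adjusted p = 0.0805). IL1B (0.0391 and 0.0350) and IL1RAP (0.0377 and 0.0340) passed for bone by limma with pseudocount 64 and with the 60th percentile filter, and IL1RAP with trimmed-mean scaling (0.0379) and without 2295 (0.0468). IL18 was not tested under the 60th percentile filter. The cause was not tested.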
